A study of Sargassum vulgare with 6 samples.

Results

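In Sargassum vulgare, 101 of 67131 listed transcripts held a middle level of abundance that differed little among 6 libraries from an acidified and a control site. They were chosen from the measured values themselves. A transcript was kept if its mean FPKM (fragments per length of transcript, scaled to the size of the library) over the 6 libraries was at least 20 and under 800, if its highest value was under 1.6 times its lowest, and if its component, the set of assembled sequences taken as forms of 1 gene, had fewer than 3 detected transcripts. Detected means that 3 or more of the 6 libraries reached an FPKM of 1, as in 5399 transcripts. All 101 were detected, all were at 1 FPKM or more in each of the 6 libraries, and each came from a different component. The first and the third condition alone held for 731 transcripts, so the steady ones were 13.8% of these. Over all detected transcripts 6.02% met the limit on the ratio. Of the 731, the 630 that exceeded the limit are called the variable transcripts here.

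The control group was 3 libraries from thalli of the coast of Lacco Ameno, and the acidified group was 3 libraries from thalli of natural carbon dioxide vents at Castello Aragonese, both on the island of Ischia. Each library was a pool of 3 thalli, made from the apical tissue of wild algae after visible epiphytes had been removed, and all 6 shared a sequencing lane. Each condition is a single location, so acidification and every other difference between the locations cannot be told apart. The labels do not say how the pools were drawn beyond this, so the spread between libraries may be in part technical.

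Sargassum vulgare is a brown alga that forms canopies on shallow rocky bottoms. Dissolved carbon dioxide lowers the pH of sea water and shifts its carbonate chemistry, and algae at vents live with this for long periods. Transcripts whose level changes little between conditions are commonly sought as references for measuring others, and in many organisms they serve basic upkeep of the cell. Which genes the 101 transcripts come from is not known here, because the tables pair no transcript with a gene name, a function or a sequence. For the same reason the tissue could not be checked against marker genes and no list of genes by function could be matched.

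The deposited FPKM summed to between 750020 and 1048696 per library, from an unknown number of reads. Below 3 FPKM, 100% of the distinct values in a library lay within 0.00055 of a whole multiple of a step, which was between 0.00886 and 0.0116. Divided by 0.01, the steps of the 6 libraries had a product of 1.00, as for values rounded to 2 decimals to which a factor for each library was applied afterwards. FPKM starts from a share of the sequenced RNA, which such a factor would rescale. A steady value therefore shows neither a steady share nor a steady amount of RNA per thallus. In such tissue samples fewer cells of a type and less RNA per cell cannot be told apart.

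The steady transcripts spanned a 37.4-fold range of abundance, with the lowest single value at 16.9 and the highest at 904 FPKM. Their mean FPKM had a median of 171, with quartiles of 43.0 and 433. There were 30 with a mean of 20 to 50 FPKM, 11 with 50 to 100, 12 with 100 to 200, 19 with 200 to 400 and 29 with 400 to 800. The 29 highest held 62.0% of the FPKM of all 101, and the 30 lowest held 3.90%. Steady transcripts made up a similar part of each band, between 11.7% of the 94 transcripts at 50 to 100 FPKM and 17.1% of the 70 at 100 to 200 FPKM. A steady level was therefore found all along the range rather than at one end of it.

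**Figure D1:**
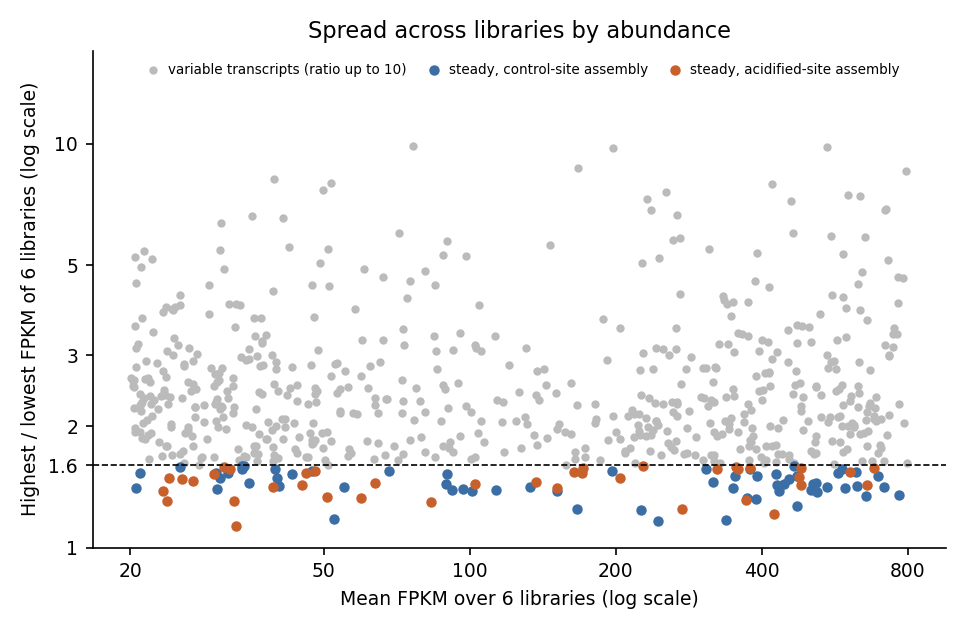
Ratio of the highest to the lowest FPKM of the 6 libraries (log scale) against the mean FPKM (log scale) for the transcripts of the same abundance and component size. Coloured points are the 101 steady transcripts by the assembly they came from, grey points are variable transcripts, and the dashed line is the limit of 1.6. The 24 variable transcripts with a ratio of 10 or more or with a value of 0 are not drawn. Steady transcripts lie along the whole range from 20 to 800 FPKM.

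Among the 101, the ratio of the highest to the lowest value ran from 1.13 to 1.599, with a median of 1.45. It was under 1.2 in 4 transcripts, under 1.3 in 9, under 1.4 in 29 and under 1.5 in 61, so most of them lay in the upper part of what the limit allowed. The coefficient of variation over the 6 libraries had a median of 14.5% and a range of 4.74% to 21.2%. In the variable transcripts the median ratio was 2.35 and the median coefficient of variation 32.1%. These values chose the 101 and describe them without a test.

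The steadiest of all was Sample_MAC_c76288.graph_c0_seq3, from the acidified-site assembly. It stood at 35.1, 31.7 and 31.1 FPKM in control libraries 1, 2 and 3 and at 33.2, 34.3 and 32.3 FPKM in the acidified libraries. All 6 values lay within a ratio of 1.13, and the sites overlapped. In the control-site assembly the steadiest transcript with a mean of 20 to 50 FPKM was Sample_MLA_c34171.graph_c0_seq14, at 30.4, 26.7 and 26.5 FPKM in the control and 31.8, 37.0 and 28.9 FPKM in the acidified libraries. Its highest value was in acidified library 2 and its ratio was 1.397. Both are single extremes of the ratio that chose them, so they do not compare the assemblies. Over all steady transcripts the median ratio was 1.44 for the control-site and 1.48 for the acidified-site assembly.

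Between 50 and 100 FPKM the steadiest were Sample_MLA_c36785.graph_c2_seq1 and Sample_MAC_c94537.graph_c0_seq5. The former had 54.1, 57.4 and 48.7 FPKM in the control and 49.3, 54.1 and 52.0 FPKM in the acidified libraries, with the 2 sites intermixed. The latter had 92.2, 87.5 and 89.4 FPKM in the control and 72.2, 87.0 and 70.8 FPKM in the acidified libraries. Its 3 acidified values all lay below its 3 control values, by little in acidified library 2, so a narrow total range did not keep the sites from separating. Between 100 and 200 FPKM Sample_MLA_c30295.graph_c0_seq4 had 176, 148 and 184 FPKM in the control and 180, 148 and 165 FPKM in the acidified libraries, with the second library lowest at each site. At the same level Sample_MAC_c68227.graph_c0_seq3 had 177, 125 and 128 FPKM in the control and 175, 174 and 129 FPKM in the acidified libraries, which formed a higher and a lower set of 3 that each mixed both sites.

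Between 200 and 400 FPKM Sample_MLA_c33676.graph_c0_seq1 was at 222, 252 and 230 FPKM in the control and at 259, 259 and 245 FPKM in the acidified libraries, a ratio of 1.17. Sample_MAC_c94699.graph_c0_seq12 was at 294, 252 and 259 FPKM in the control and at 249, 282 and 310 FPKM in the acidified libraries. The sites overlapped in both. Between 400 and 800 FPKM Sample_MAC_c66097.graph_c0_seq1 was at 438, 409 and 462 FPKM in the control and at 445, 382 and 408 FPKM in the acidified libraries, a ratio of 1.21. Sample_MLA_c26364.graph_c0_seq1 was at 495, 414 and 525 FPKM in the control and at 490, 459 and 445 FPKM in the acidified libraries, with both its extremes at the control site.

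**Figure D2:**
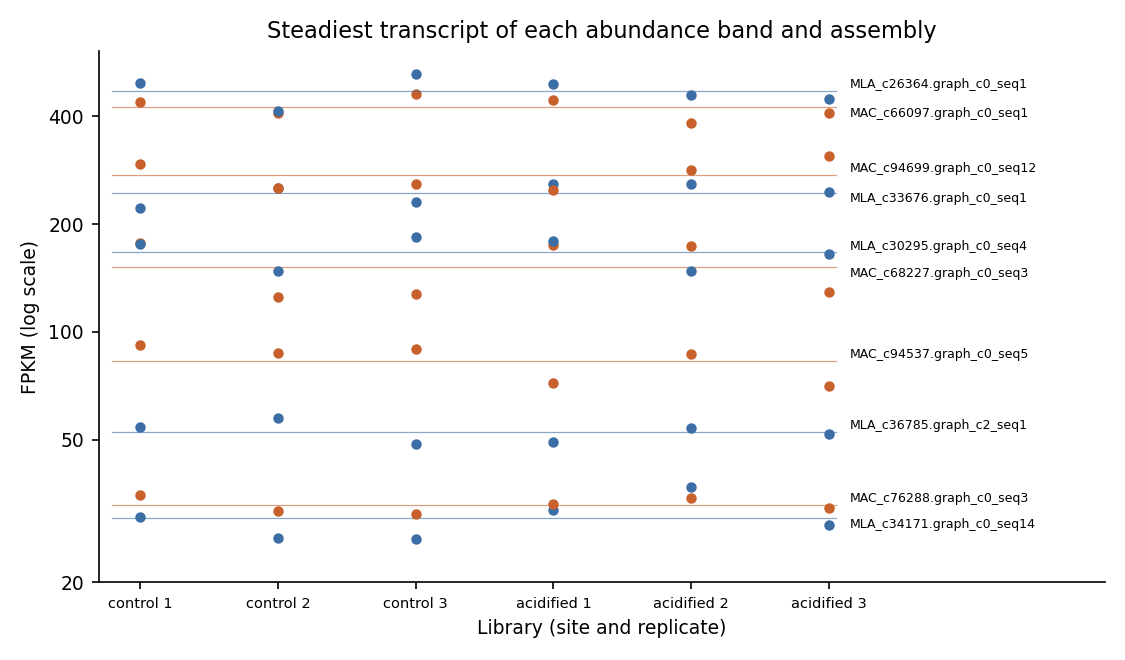
FPKM (log scale) in each of the 6 libraries for the steadiest transcript of each abundance band in each assembly of origin, 10 transcripts in all. Points are libraries, horizontal lines are means over the 6 libraries, and blue and orange mark the control-site and the acidified-site assembly. The points stay close to their lines from a mean of 30.2 FPKM up to one of 471 FPKM.

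At the ends of the abundance range stood Sample_MLA_c15577.graph_c0_seq1 and Sample_MLA_c27365.graph_c0_seq1. The former averaged 766 FPKM, with 904, 667 and 784 FPKM in the control and 824, 699 and 718 FPKM in the acidified libraries. The latter averaged 20.5 FPKM, with 18.2, 19.0 and 21.2 FPKM in the control and 25.6, 20.3 and 18.7 FPKM in the acidified libraries. Neither separated the sites. Just past the limits on abundance were Sample_MLA_c28362.graph_c1_seq5, with a mean of 19.7 FPKM and a ratio of 1.52, and Sample_MLA_c30692.graph_c0_seq1, with a mean of 801 FPKM and a ratio of 1.34.

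The limit on the ratio cut through a continuous distribution. Just inside it were Sample_MLA_c39332.graph_c0_seq1, at 33.9, 29.9 and 36.2 FPKM in the control and 40.1, 40.4 and 25.3 FPKM in the acidified libraries, and Sample_MLA_c22881.graph_c0_seq2, at 26.8, 30.2 and 32.6 FPKM in the control and 40.7, 42.9 and 30.6 FPKM in the acidified libraries. In both, acidified library 3 stood below the other 2 acidified libraries. Just outside was Sample_MLA_c31760.graph_c0_seq2, at 168, 152 and 162 FPKM in the control and 193, 152 and 120 FPKM in the acidified libraries. Next outside was Sample_MLA_c10383.graph_c0_seq1, at 42.7, 39.3 and 49.7 FPKM in the control and 57.9, 63.1 and 53.1 FPKM in the acidified libraries. There were 40 transcripts with a ratio of 1.5 to 1.6 and 47 with one of 1.6 to 1.7. Another 165 detected transcripts met the limit on the ratio and on the component but had a mean under 20 FPKM, 40 had a mean of 800 FPKM or more, and 10 of the same abundance sat in components with 3 or more detected transcripts.

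Within the narrow range that the rule allows, the steady transcripts showed small shifts between libraries, which are given as a description of the values that chose them. Their summed FPKM was 27697, 23895 and 26164 in control libraries 1, 2 and 3 and 26399, 24701 and 24500 in the acidified libraries, so the highest sum was 1.16 times the lowest. For the sums of all transcripts, which no such limit holds together, this was 1.398 times. The steady transcripts thus held 3.17%, 3.12% and 2.92% of the summed FPKM in control libraries 1, 2 and 3. Their share was 2.52%, 2.72% and 3.27% among the acidified ones, with the lowest share in acidified library 1, whose total was the highest. On the log2 scale their median deviation from each transcript's own mean was lowest in control library 2, at -0.11, and highest in control library 1, at 0.08. In the other libraries it was 0.04 in control library 3 and 0.07, -0.02 and -0.07 in acidified libraries 1, 2 and 3.

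These shifts showed in which library was the extreme one. Control library 1 was the highest of the 6 in 29 transcripts and acidified library 1 in 22, while control library 2 was the highest in 7. The lowest value was in acidified library 3 in 28 transcripts and in control library 2 in 25, while control library 3 was the lowest in 8. Each site thus had 1 library that tended to be high and 1 that tended to be low. The limit over all 6 values leaves the sites little room to line up with high or low, so nothing is read about the sites. The steps divided by 0.01 were 1.02, 0.89 and 1.01 in control libraries 1, 2 and 3. They were 1.16, 1.06 and 0.89 in acidified libraries 1, 2 and 3. Whether these factors bear on which libraries were high or low was not tested.

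**Figure D3:**
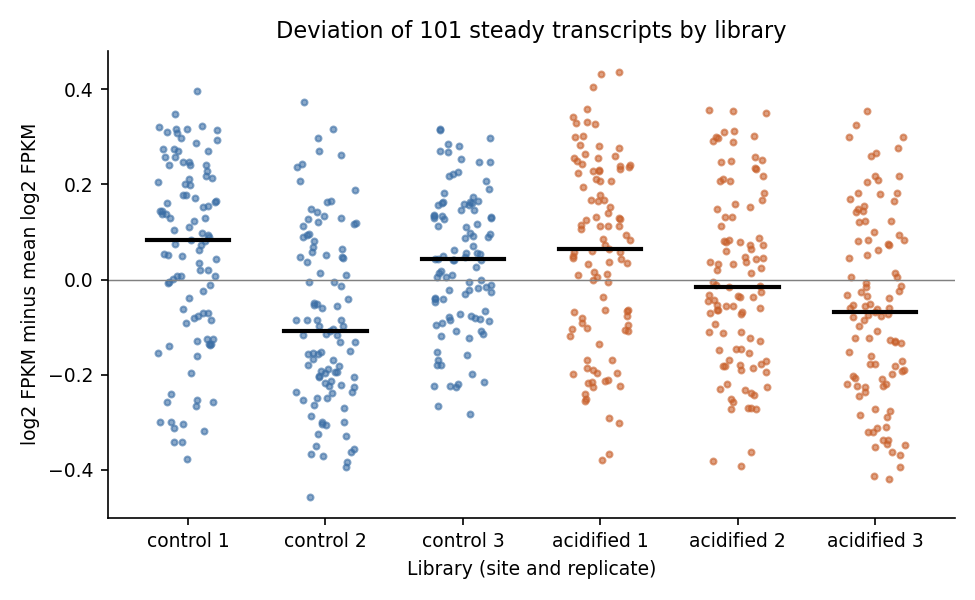
Deviation of each of the 101 steady transcripts from its own mean on the log2 scale, by library. Points are transcripts, spread sideways at random, and black bars are medians over the 101, which lie between -0.11 in control library 2 and 0.08 in control library 1.

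The rule, which allows each transcript little variation while their means span a wide range, leaves little room for changes of order among them, so their ranks are given as a description only. Ranked from 1 to 101 within each library, a transcript moved over a median of 10 places between its highest and its lowest rank, and at most over 27 places. Of the 20 highest in a library, 11 were among the 20 highest in all 6, and 11 likewise among the 20 lowest.

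Between the sites, the log2(FPKM + 1) difference of the steady transcripts, acidified minus control, ran from -0.42 to 0.50, with a median of -0.02. The difference was above 0 in 44 and below 0 in 57, under 0.1 in size in 34 and under 0.25 in size in 82. The median size was 0.15, against 0.52 in the variable transcripts and 0.39 over all detected transcripts. In the fit across all detected transcripts with limma, 0 of the 101 had an adjusted p under 0.05 and 1 had an unadjusted p under 0.05, where 7.67% of all detected transcripts passed the adjusted and 23.8% the unadjusted threshold. Of the 731 transcripts of the same abundance and component size, 13.5% passed the adjusted one. The choice used these values, so nothing is read from those counts. The SE of a difference in the fit was 0.20 to 0.28 on the log2 scale, so the data do not show that any of the 101 was equal at the 2 sites.

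Some steady transcripts separated the sites all the same. In 17 of the 101 the libraries of the 2 sites did not overlap, beside 29.1% of all detected transcripts and 39.0% of the 731. The acidified site was higher in 7 of these, beside 14.9%, and lower in 10, beside 14.2%, and the choice again bears on these counts. The largest positive difference was that of Sample_MAC_c58612.graph_c0_seq1, at 283, 271 and 328 FPKM in the control and 409, 429 and 405 FPKM in the acidified libraries, which do not overlap. Sample_MLA_c38431.graph_c0_seq1 came next, at 74.5, 77.5 and 81.9 FPKM in the control and 98.7, 113 and 92.6 FPKM in the acidified libraries. These 2 had log2 differences of 0.50 and 0.37. The largest negative differences were those of Sample_MLA_c25107.graph_c0_seq1, at 455, 385 and 458 FPKM in the control and 319, 357 and 293 FPKM in the acidified libraries, and of Sample_MLA_c31625.graph_c0_seq1, at 538, 440 and 473 FPKM in the control and 355, 354 and 405 FPKM in the acidified libraries. Their log2 differences were -0.42 and -0.38, also without overlap. The site means of Sample_MAC_c58612.graph_c0_seq1, which met the limit on the total range, were 294 ± 30.0 FPKM at the control and 414 ± 12.4 FPKM at the acidified site (SD, n = 3 each).

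The limit of 1.6 capped the spread of the steady transcripts at both sites alike, so no comparison of the sites is drawn from it. Their median SD among 3 libraries on the log2(FPKM + 1) scale was 0.17 for control and 0.18 for acidified libraries, and 51 of the 101 varied less among the control and 50 less among the acidified libraries. In the variable transcripts, which were chosen by exceeding the same limit, the medians were 0.29 and 0.36. Over all detected transcripts they were 0.33 for control and 0.34 for acidified libraries.

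By their names, 62 of the steady transcripts came from the assembly of the control site and 39 from that of the acidified site. The control-site assembly gave 61.4% of the steady transcripts, 52.9% of the variable ones and 49.6% of all detected transcripts. It gave 22 of the 29 steady transcripts at 400 to 800 FPKM, and 16 of the 30 at 20 to 50 FPKM. Steady transcripts were 15.7% of the 395 transcripts of the same abundance and component size from the control-site assembly and 11.6% of the 336 from the acidified-site assembly. No test was made of these shares, because transcripts are not independent and a gene assembled at both sites can be listed under 2 names.

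The direction of the small differences between the sites went in part with the assembly of origin. Of the 62 steady transcripts of the control-site assembly, 43 were lower and 19 higher at the acidified site, with a median log2 difference of -0.10. Of the 39 of the acidified-site assembly, 25 were higher and 14 lower, with a median of 0.05, which turned to -0.032 with each library rescaled to the same sum and to -0.029 with the factor of each library removed. In the variable transcripts the medians were -0.28 and 0.36, wider apart, and over all detected transcripts they were -0.09 and 0.15. The median of the control-site assembly stayed below that of the acidified-site assembly under each of the 4 rescalings tried.

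**Figure D4:**
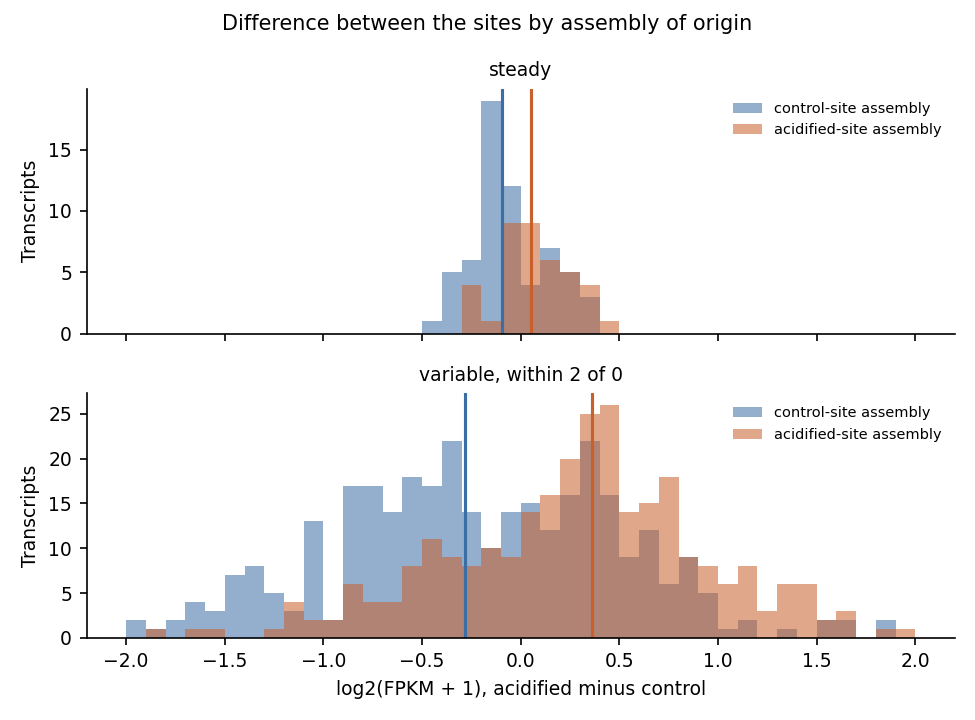
Number of transcripts by log2(FPKM + 1) difference, acidified minus control, in bins of 0.1, for the steady transcripts (top) and the variable transcripts (bottom, where 23 with a difference beyond 2 are not drawn). Colours mark the assembly of origin and vertical lines the medians, at -0.10 and 0.05 in the steady and at -0.28 and 0.36 in the variable transcripts.

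For most other forms listed in the same components the rule did not use the level, only how many were detected. The exceptions were Sample_MAC_c95965.graph_c1_seq2 and Sample_MAC_c95712.graph_c2_seq20. Both met the other conditions and were kept out of the 101 by their ratios, 2.25 and 2.34. Of the 101 steady transcripts, 64 (63.4%) were the single listed form of their component, as were 433 (68.7%) of the variable transcripts. The other 37 shared their component with 126 further forms, up to 13 forms in 1 component. Of the 126 forms, 58 were listed at 0 in all 6 libraries and 59 more were above 0 in some library without being detected, with 7.65 FPKM as their highest value. The steady transcript held over 99% of the FPKM of its component in 19 of the 37 cases, 90% to 99% in 12 and less in 6. Fragments shared by near-identical forms are divided between them by an estimate, so the levels of single forms in these components are uncertain.

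The other forms of these components held less FPKM in the acidified libraries, a difference that rested on 1 form. Their sum was 715, 580 and 642 FPKM in the control and 346, 513 and 554 FPKM in the acidified libraries, a difference of -174 FPKM between the site means without overlap (p = 0.10 in an exact two-sided permutation test, which with 3 libraries per site can go no lower). Without acidified library 1 the difference was -112 FPKM. A single form, Sample_MAC_c95965.graph_c1_seq2, held 86.3% of the FPKM of these forms. It counts among them only because its ratio passed the limit. The choice thus bears on this difference and its p, and nothing is read from them. Without that form the sums were 80.3 ± 13.1 FPKM at the control and 73.0 ± 12.1 FPKM at the acidified site (SD, n = 3 each, exact permutation p = 0.60). These sums still hold Sample_MAC_c95712.graph_c2_seq20, with means of 33.0 FPKM at the control and 27.2 FPKM at the acidified site. That form too counts among them only through its ratio, so nothing is read from this p either.

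The largest of these forms, Sample_MAC_c95965.graph_c1_seq2, stood beside the steady transcript Sample_MAC_c95965.graph_c1_seq9. The steady transcript was at 225, 170 and 176 FPKM in the control and at 188, 213 and 253 FPKM in the acidified libraries, with overlap between the sites. The other form was at 646, 503 and 547 FPKM in the control and at 287, 431 and 477 FPKM in the acidified libraries, without overlap. It did not pass limma's test, with a log2 difference of -0.53 ± 0.26 (SE, adjusted p = 0.25), and the difference was -0.31 without acidified library 1. The steady transcript made up 25.8%, 25.3% and 24.3% of its component in the control and 39.6%, 33.0% and 34.6% in the acidified libraries. The component as a whole varied by 1.83 times. Here 1 form met the limit while the sum of the forms did not.

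The second such pair was Sample_MAC_c95712.graph_c2_seq15, a steady transcript with 24.7, 26.1 and 21.4 FPKM in the control and 21.2, 30.5 and 20.5 FPKM in the acidified libraries, and its companion form Sample_MAC_c95712.graph_c2_seq20. The companion had 25.1, 34.5 and 39.5 FPKM in the control and 16.9, 30.3 and 34.5 FPKM in the acidified libraries, a log2 difference of -0.31 ± 0.32 (SE, limma adjusted p = 0.61), and was lowest in the first library of each site. Its log2 difference was -0.0080 without acidified library 1, -0.17 without control library 3, -0.49 without control library 1 and -0.50 without acidified library 3. Summed over all forms, 97 of the 101 components had a highest value under 1.6 times the lowest. This count is largely set by the rule. In 64 components the steady transcript was the only listed form, and in 19 more it held over 99% of the FPKM.

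In all, 9 of the 126 other forms were detected and tested, all of them from the acidified-site assembly, and 0 passed limma's adjusted threshold, beside 7.67% of all detected transcripts. The choice used the levels of Sample_MAC_c95965.graph_c1_seq2 and Sample_MAC_c95712.graph_c2_seq20 among these 9. An unadjusted p under 0.05 was found in 3 of the 9, beside 23.8%. These 3 were named after their values were seen. Sample_MAC_c96015.graph_c0_seq13 had 6.99, 8.62 and 12.8 FPKM in the control and 2.48, 4.18 and 4.35 FPKM in the acidified libraries, a log2 difference of -1.15 ± 0.30 (SE, limma adjusted p = 0.0504). The values do not overlap, and the adjusted p was 0.035 to 0.52 over the alternatives. Sample_MAC_c78916.graph_c0_seq7 had 1.48, 1.29 and 1.28 FPKM in the control and 0.081, 0 and 0.398 FPKM in the acidified libraries (limma adjusted p = 0.082, and 0.041 without trend or robust fitting). Sample_MAC_c93514.graph_c1_seq5 went the other way, with 1.42, 1.495 and 1.54 FPKM in the control and 3.46, 2.19 and 4.14 FPKM in the acidified libraries (limma adjusted p = 0.13). Each is a minor form beside a steady transcript that carried most of the component.

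Transcripts that met the limit over all 6 libraries must also meet it among the 3 of each site, so they are part of a larger set that was steady within both sites. Of the 731 transcripts of the same abundance and component size, 288 had a ratio under 1.6 among the 3 control libraries and also among the 3 acidified libraries. The 101 were all among them, and the other 187 were steady at each site but at levels that together passed the limit, with a median size of the log2 difference of 0.56. Of the 731, 196 were steady within the control site alone, 100 within the acidified site alone and 147 within neither.

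Transcripts chosen at one site were then read at the other, which the choice had not used except for the condition on the component. Of 480 transcripts steady among the control libraries, 59.2% were also steady among the acidified libraries, against 40.0% of 225 that were not steady at the control site. In the reverse direction the shares were 73.8% of 420 and 56.7% of 349. The mean at the other site was within 1.6 times that at the site of choice in 71.5% of those steady at the control site. It was so in 61.3% of those not steady there, and in 71.7% and 57.9% for the choice at the acidified site. Both shares were higher for transcripts steady at the site of choice, in either direction. The second share also uses the mean at the site of choice, which is less certain where the spread there is wide. Nothing is therefore read from the second share. The differences were not tested, since the transcripts share their libraries.

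A library kept out of the choice gave a further reading. With the rule applied to 5 libraries, 118 to 216 transcripts were chosen, and the value in the left-out library kept the ratio under 1.6 in 60.1%, 74.3% and 87.3% of them for control libraries 1, 2 and 3 and in 47.2%, 79.5% and 70.6% for acidified libraries 1, 2 and 3. The left-out value had a median of 1.22 times the mean of the other 5 in acidified library 1 and of 0.86 times in acidified library 3. For control libraries 1, 2 and 3 the medians were 1.07, 0.87 and 1.033, and for acidified library 2 it was 0.97. The ratio passed the limit most often with acidified library 1. Of all 216 transcripts chosen without it, kept or not, 153 had a value there above the mean of the other 5. In the transcripts of the same abundance and component size that were above 0 in all libraries, 723 in number, this library also had the highest median deviation, 0.20 on the log2 scale. Acidified library 1 also had the largest step divided by 0.01, at 1.16. Whether this bears on its place here was not tested. Without acidified library 1 the rule found 216 transcripts, and without control library 1 it found 168.

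**Figure D5:**
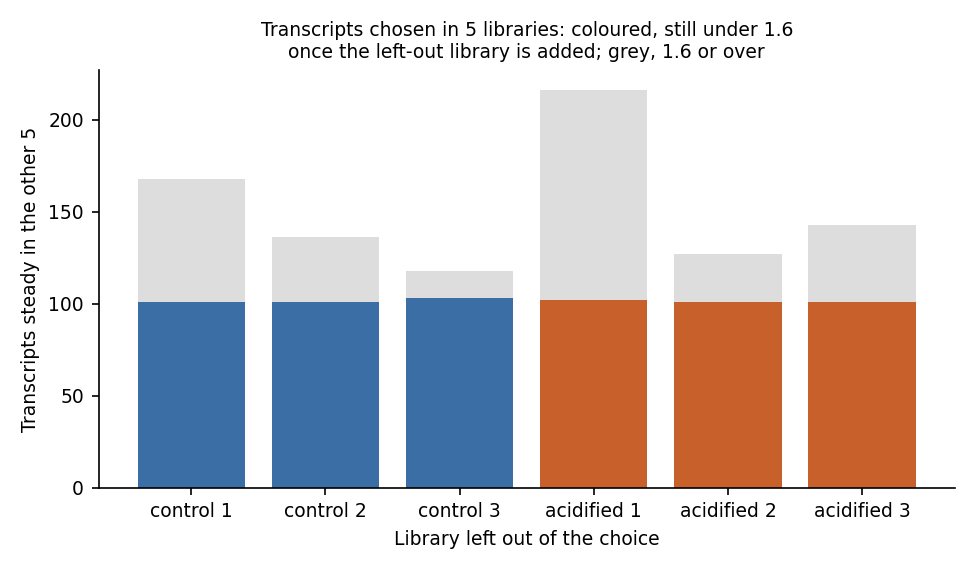
Transcripts chosen as steady in 5 libraries, by the library left out. The full bar is the number chosen, and its coloured part is the number whose ratio stayed under 1.6 when the left-out library was added, between 101 and 103. The rule over all 6 libraries sets the coloured part near 101. The grey part is largest for acidified library 1, where 216 were chosen and 102 stayed.

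Which transcripts count as steady depended on how the libraries were scaled. With the factor per library removed, summed FPKM lay between 846962 and 900721, and the rule found 138 transcripts, of which 68 were among the 101. That is 67.3% of the 101 and 49.3% of the 138. With each library rescaled to the same sum it found 140, which held 64 of the 101. Median ratio scaling, which sets the libraries by the transcripts above 0 in all of them, found 119 and held 83, and quantile normalization found 143 and held 77. Under all 4 of these rescalings as well as in the deposited values, 54 transcripts were found. None of the 101 had a ratio of 2 or more under any of them, the highest being 1.99 with the same sum.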

How the data were processed

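RNA from apical tissue of 6 pools of 3 thalli was sequenced with a stranded total RNA kit, per the labels' protocols. The deposited tables, one per site, hold FPKM by the authors for the same transcripts. Bowtie2 and RSEM 1.1.21 were used, per the submitters' processing notes; which assembler and filters were used is not stated in the sources here. Tables were joined by transcript name and libraries grouped by the location in their labels. The steady transcripts and the lists of forms were chosen with earlier results of these data known.

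Detected transcripts were compared by limma 3.58.1 (R 4.3.3) on the log2(FPKM + 1) scale (variance trend, robust fitting, two-sided, Benjamini-Hochberg adjustment over 5399, threshold 0.05), tested on simulated data. FPKM gives no read depth, so no counting interval is given. Named transcripts are the steadiest per abundance band and assembly, those at the ends of the range, nearest the ratio limit, with the largest site differences, and with most FPKM in other forms. Transcripts just past the abundance limits were added afterwards. The alternatives were pseudocounts, filters, scalings, fitting without trend, a replicate block, other ratio limits and leaving out each library. Removing the factor per library and leaving out the largest form were added after the data were seen.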

Additional observations from a re-analysis of the deposited data

How the results depend on the processing

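Of the steady transcripts 0 were called under every alternative fit. The count of all called transcripts, 414, was 268 with a pseudocount of 0.1, 66 without a filter on low values, 242 in the fit with a replicate block, and 125 to 394 with 1 library left out. The fit without a filter tests many more transcripts, and leaving out a library leaves fewer samples. For the other changes the cause was not tested. Of the other forms 1 was called with a filter on a mean of at least 5 FPKM, 1 with quantile normalization and 1 without trend or robust fitting. In all other fits 0 were called, the replicate block and the fits with 1 library left out included. The rule found 29 transcripts with a ratio under 1.4, 287 with one under 2, 111 with any component, and 118 to 216 with 1 library left out, which relaxes the limit. The difference in other forms was -216 to -112 FPKM with 1 library left out, and -7.35 without the largest form. The median log2 difference of the steady transcripts of the acidified-site assembly turned from 0.054 to -0.032 with the same sum and to -0.029 with the factor per library removed. The numbers gave no sign of pairing. Between sites, deviations from the mean of the site had a correlation of -0.12, 0.02 and -0.12 for numbers 1, 2 and 3. Each was below that with at least 1 other number. The 0.02 of number 2 was above the -0.08 of control library 2 with acidified library 3. It was also above the -0.07 of control library 1 with acidified library 2. Without read counts, no depth limit can be set.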
